A study of Mus musculus with 86 samples.

Results

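The genes described here belong to the tumour necrosis factor (TNF) superfamily and were chosen by name. Of 24063 gene symbols in the deposited expression tables, 32 begin with Tnfsf or Tnfrsf followed by a digit, and all 32 were kept, with 1 row per symbol (the longest listed transcript). By symbol, 12 are ligand genes and 20 are receptor genes. By role they comprise 11 ligands, 1 annotated transcript that reads through from Tnfsf12 into Tnfsf13, 4 receptors with a death domain, 3 decoy receptors, 12 receptors that bind TRAF adaptors, and Tnfrsf26, to which no role is given here. Family members with other names, such as Tnf, Cd40 and Fas, do not match the pattern and were counted as a separate list of 15 genes.

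TNF superfamily ligands are mostly membrane proteins that assemble as trimers and bring their receptors together on the target cell. Receptors then recruit TRAF adaptors, which lead to NF-kB and MAP kinase signalling, or death domain adaptors, which can lead to caspase activation, while decoy receptors bind ligand without passing a signal on. Macrophages are known both as sources of such ligands, among them the B cell survival factors BAFF (Tnfsf13b) and APRIL (Tnfsf13), and as responders, for example through RANK (Tnfrsf11a), the receptor that drives osteoclast formation.

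RNA was sequenced from mouse macrophages in 26 libraries. Untreated C57BL6/J cells came from 5 populations, namely brain microglia, large peritoneal macrophages (LPM), small ones (SPM), peritoneal macrophages elicited with thioglycolate (TGEM) and macrophages grown from bone marrow (BMDM). BMDM were cultured in L-cell conditioned medium as a source of M-CSF and then in M-CSF, so they are a cultured population, while microglia, LPM and SPM were sorted directly after staining, per the labels. Each of the 5 populations has a first library, made from polyA RNA, and a second library in another table, which the labels describe as depleted of ribosomal RNA except for BMDM, where the kind was not given. From NOD/ShiLtJ and from SPRET/EiJ there is 1 library of untreated microglia and 1 of untreated LPM. LPM of C57BL6/J were cultured for 7 days with 4 ng/ml of IL-34 or M-CSF, each combined with 2 uM all-trans retinoic acid (ATRA), DMSO, 1 ng/ml TGFB1 or the vehicle of TGFB1, with 1 library per combination. C57BL6/J microglia were cultured for 7 days with 4 ng/ml of IL-34, M-CSF or GM-CSF, also with 1 library each. They were listed with 1 further microglia library, titled as not treated, which is called freshly sorted here. Its column header reads Microglia_Veh. The library titled GMcsf carries Mcsf in its treatment label and is called here by its title. Animal ages and the number of animals per library were not given in the labels, so the p-values measure the spread between these libraries, which may be partly technical. In the fit of cultured LPM that spread is shared by genes of similar level.

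Values are reads per 10000000 mapped reads, and mapped reads ranged from 2890000 to 27000000 with a median of 13360000. The tables of untreated cells count reads over whole gene spans, introns included, and the table of cultures counts exons, so no test crosses them. The labels were checked against marker genes: summed microglia markers stood at 88920 and 134000 in microglia and at 1897 to 14550 in the other populations. Summed LPM markers stood at 47340 and 80610 in LPM and also at 36500 and 51280 in SPM, against 37.5 to 850 elsewhere, while markers of small peritoneal macrophages and dendritic cells stood at 15540 and 28410 in SPM and at 2110 and 3523 in LPM. The X-inactivation transcript Xist stood at 6418 and 6.52 in the first and second BMDM libraries and at 1.48 and 1738 in those of TGEM, so the libraries of these populations differ in sex or in its mixture, and no term for it was fitted. In these bulk samples, fewer cells of a type and less RNA per cell cannot be told apart.

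The untreated C57BL6/J macrophages shared a core of receptor genes. Tnfrsf1a and Tnfrsf1b, the receptors of TNF, Tnfrsf11a (RANK) and Tnfrsf21 (death receptor 6) reached at least 100 in all 10 libraries of the 5 populations. Tnfrsf1b ranged from 1645 in the second LPM library to 8613 in the second TGEM library. Because spans differ in length, levels of different genes were compared per kb of exon in the table of cultures. In the 4 LPM cultures with vehicle, Tnfrsf1b led with a median of 312 per kb (289 to 361), followed by Tnfsf13 at 234 (211 to 280) and Tnfrsf1a at 223 (191 to 250), whose ranges overlap. Freshly sorted microglia also had Tnfrsf1b first at 239 per kb, with Tnfrsf21 at 139 and Tnfrsf1a at 116. At the other end, Tnfrsf11b (osteoprotegerin, the decoy of RANK ligand), Tnfrsf9 (4-1BB), Tnfsf11 (RANK ligand) and Tnfsf18 (GITR ligand) stayed under 10 in all 10 libraries of the populations.

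**Figure D1:**
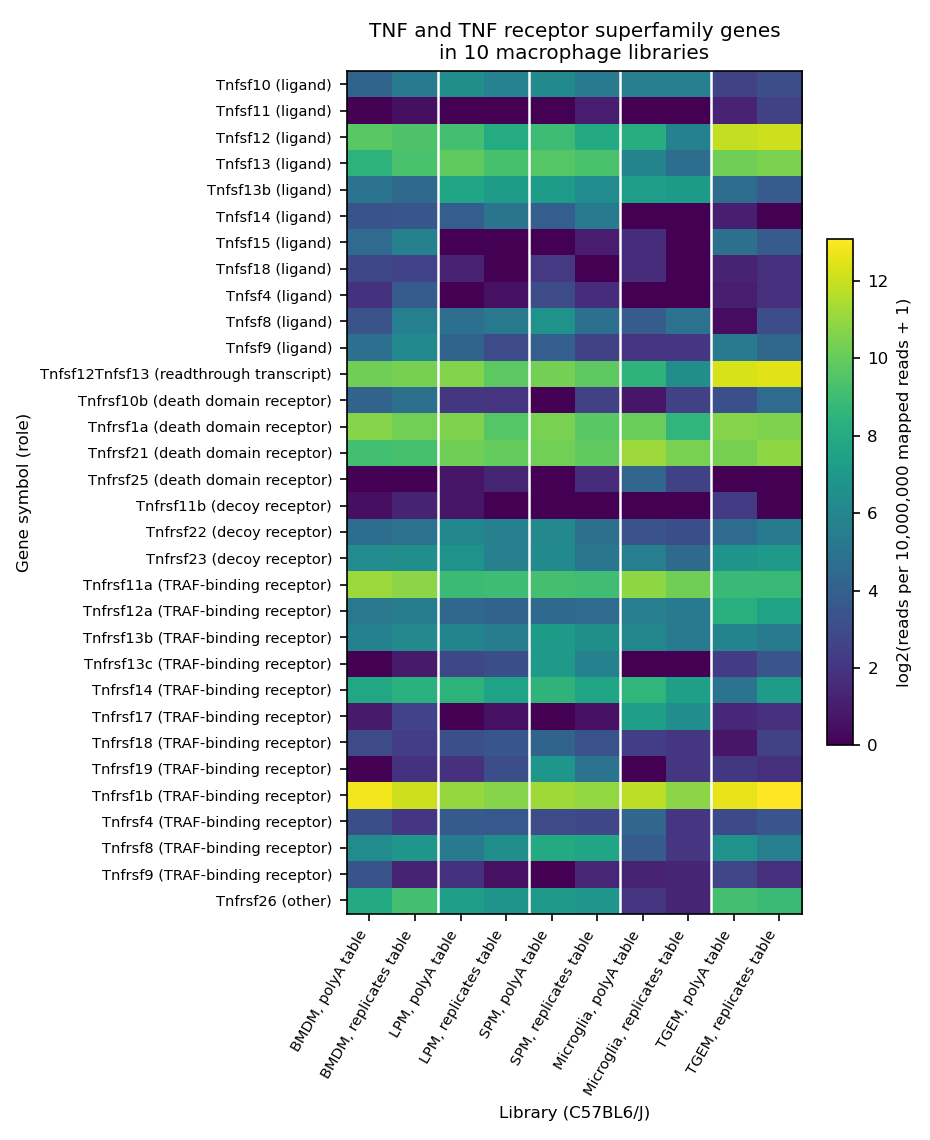
Heat map of log2(reads per 10000000 mapped reads + 1) for the 32 genes (rows, grouped by role) in the 10 untreated C57BL6/J libraries (columns, 2 per population). Tnfrsf1b, Tnfrsf1a, Tnfrsf11a and Tnfrsf21 are high in every column, while Tnfrsf17, Tnfrsf26 and Tnfsf13 separate the microglia columns from the rest.

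Each population was compared with the other 4 in 1 limma fit over 10 libraries, with calls made where the p-value adjusted by Benjamini-Hochberg was under 0.05 and the fold at least 2. These comparisons share libraries with each other. In microglia, 14 of 32 members were called, 4 higher and 10 lower, where 30.8% of all 19313 genes tested were called (12.6% higher and 18.1% lower). The libraries of microglia did not overlap the others for 8 members, against 23.4% of all genes. The median log2 fold of the members was -0.67 (-0.65 with genes at 0 reads set to their bound), against -0.21 over all genes. All the values below are in the order first library, second library.

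Among ligands, the neighbouring genes of APRIL and TWEAK were lower in microglia. Tnfsf13 (chr11:69682577-69685554, mm10, minus strand) stood at 57.3 and 25.0 in microglia, 939 and 607 in LPM, 790.0 and 649 in SPM, 350 and 646 in BMDM and 1194 and 1433 in TGEM. Both microglia libraries lay below all 8 others, with a log2 fold of -4.29 ± 0.36 (SE, limma adjusted p = 2.47e-05). Tnfsf12, which encodes TWEAK, was lower by log2 -2.70 ± 0.41 (adjusted p = 0.000919), at 285 and 53.1 in microglia, with the first of these above the second LPM and SPM libraries (261 and 254). The readthrough transcript was lower as well (log2 -3.29 ± 0.40, adjusted p = 0.000225). It overlaps both Tnfsf12 and Tnfsf13 on the same strand, so reads of either gene cannot be told apart from those of the readthrough. The counts of members include it as a member of its own, although it shares reads with both genes.

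Other ligands went in opposite directions. Tnfsf13b (BAFF, chr8:10006633-10035999) was higher in microglia, at 156 and 137, than in BMDM (31.0 and 21.9) and TGEM (23.7 and 12.4), but LPM had 208 and 148. Its fold against the other 4 populations was log2 1.42 ± 0.34 (adjusted p = 0.0101), and the call was lost without the second microglia library (adjusted p = 0.0785). Tnfsf14 (LIGHT) had 0 reads in both microglia libraries and a mean of 15.2 elsewhere, so that it was at least 4.43-fold lower in microglia, taking 3 reads per library as the floor (adjusted p = 0.00311, and 0.0563 without the second microglia library). Tnfsf9 (4-1BB ligand) stood at 2.87 and 3.12 against 4.88 to 74.1 elsewhere (log2 -2.30 ± 0.65, adjusted p = 0.0212), a call lost in 5 of 10 refits that each left out 1 library. The span of Tnfsf9 overlaps Gm11110 on the other strand. No strand setting was stated, so reads of these genes cannot be told apart.

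Among receptors, Tnfrsf17 (BCMA, a receptor of BAFF and APRIL known from plasma cells, chr16:11313809-11320068, plus strand) marked microglia. Its values were 158 and 84.3 in microglia, 0 and 0.512 in LPM, 0 and 0.542 in SPM, 0.912 and 5.12 in BMDM and 5 and 1 reads in TGEM. Every microglia value lay above every other one, with a log2 fold of 5.86 ± 0.59 (adjusted p = 7.53e-05). Of 5 plasma cell markers tested, 1 was called higher and 2 lower in microglia, and the list summed to 1838 and 1355 there against 955 to 7622 in the other populations. Igj and Mzb1, which serve antibody assembly, had 0 reads in both microglia libraries, and the marker called higher was Prdm1, at 277 and 375. The part of plasma cells in the Tnfrsf17 values was not tested.

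Tnfrsf26 (chr7:143607685-143627845, minus strand) showed the reverse. Its values were 2.87 and 1 read in microglia, 152 and 107 in LPM, 132 and 110.1 in SPM, 251 and 566 in BMDM and 565 and 479 in TGEM. The microglia libraries again lay apart from all others (log2 -6.23 ± 0.39, adjusted p = 4.62e-06). Its neighbours on chr7, the decoy receptor genes Tnfrsf22 and Tnfrsf23, were lower too, by log2 -2.03 ± 0.50 (adjusted p = 0.0119) and -1.23 ± 0.41 (adjusted p = 0.0420). These 3 genes are related in sequence and could share reads. The call of Tnfrsf22 was lost without either microglia library and that of Tnfrsf23 in 8 of 10 refits.

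Other receptors of microglia were Tnfrsf8 (CD30), at 12.9 and 3.12 against 42.7 to 249 elsewhere (log2 -3.70 ± 0.53, adjusted p = 0.000633), and Tnfrsf13c (the BAFF receptor), with 0 reads in both libraries and thus at least 7.92-fold lower than elsewhere (adjusted p = 0.00331). The mean elsewhere rests mainly on SPM, and the call of Tnfrsf13c was lost without the second microglia library (adjusted p = 0.0543). Tnfrsf25 (death receptor 3) was higher at 18.6 and 4.68 against 0 to 2.17 (log2 2.93 ± 0.62, adjusted p = 0.00534), and Tnfrsf11a at 1816 and 1210 against 442 to 2192 (log2 1.08 ± 0.24, adjusted p = 0.00677). Both calls were lost without the first microglia library (adjusted p = 0.0862 and 0.0521). Immediate early genes moved with this group: 16 of 18 were called higher in microglia, with summed values of 61930 and 212800 against 5525 to 19030 in the other populations, and their part in these results was not tested. The calls of Tnfrsf17, Tnfrsf26, Tnfrsf8, Tnfsf12, Tnfsf13 and the readthrough transcript held under every setting and refit tried.

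Of the 15 family genes named otherwise, 14 could be tested, and 1 was higher and 3 lower in microglia. Tnf rose (log2 2.04 ± 0.58, adjusted p = 0.0229), and the receptors Fas (log2 -4.39 ± 0.47, adjusted p = 0.000113) and Cd40 (log2 -4.30 ± 0.38, adjusted p = 3.34e-05) fell. Of 22 TRAF and death domain adaptors, 5 were higher and 4 lower. The lower ones included Mlkl and Ripk3, which act in necroptosis (log2 -4.83 ± 0.40, adjusted p = 2.22e-05, and -3.04 ± 0.39, adjusted p = 0.000324), and the higher ones the adaptor Traf5 (log2 1.98 ± 0.27, adjusted p = 0.00051).

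**Figure D2:**
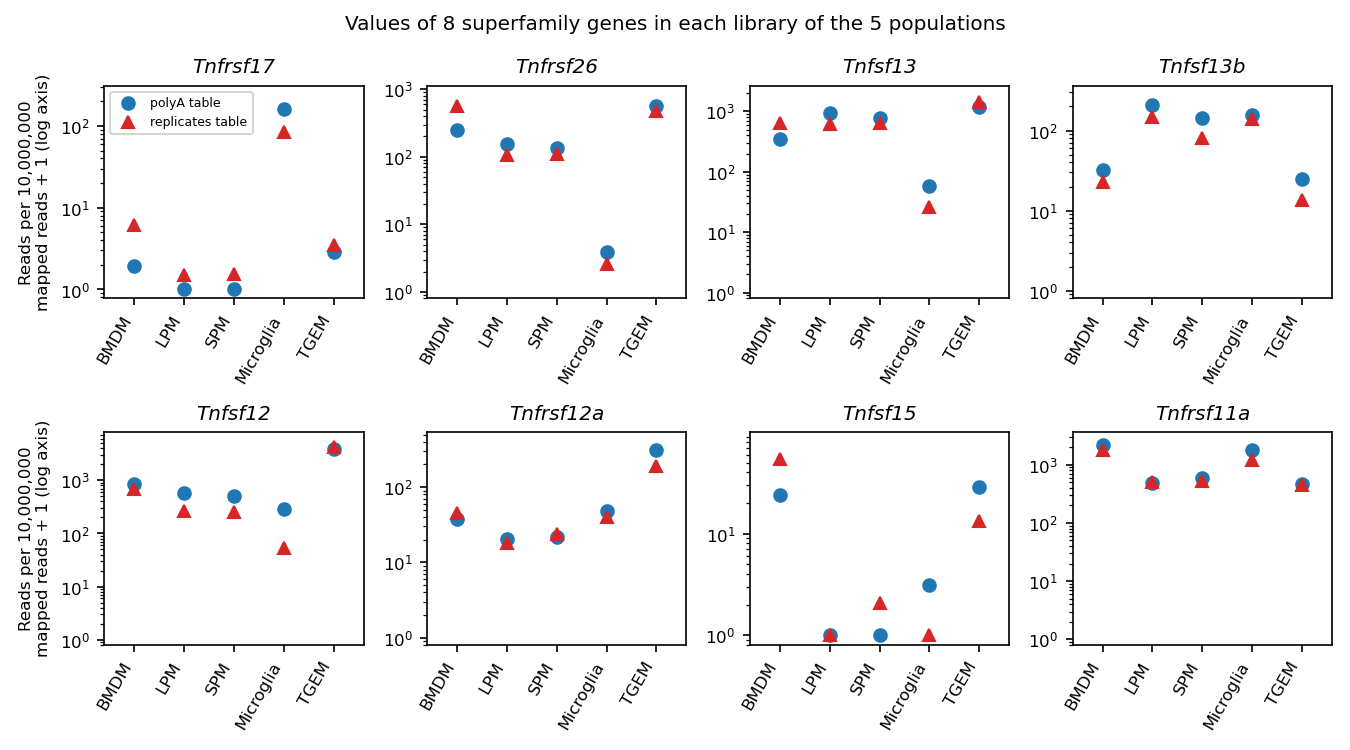
Reads per 10000000 mapped reads + 1 (log axis) of 8 genes in the 5 populations, with 1 point per library and marker shape for the deposited table. Tnfrsf17 stands out upward and Tnfrsf26 and Tnfsf13 downward in microglia, and Tnfsf12 and Tnfrsf12a are highest in TGEM.

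Chromatin near these genes was described from lists of PU.1 peaks and of regions with H3K27ac or H3K4me2, with 1 library per population and no test. PU.1 is the factor that marks enhancers in macrophages, H3K27ac marks active regulatory regions and H3K4me2 marks regulatory regions more broadly. Between 27 and 30 of 32 members (84.4% in microglia to 93.8% in BMDM and SPM) had a PU.1 peak within 10 kb of the gene, against 64.5% to 76.2% of all 24048 symbols with a position. In all 5 populations, 26 members had such a peak, and only Tnfrsf11b and Tnfsf11, which are near 0 in RNA, had none in any. H3K27ac lay within 1 kb of the start in all 5 populations for 8 members, in 1 to 4 populations for 17 and in none for 7. By population this was 31.2% of members in microglia to 62.5% in TGEM, against 26.2% to 47.5% of all symbols. The antibody label of the BMDM library titled PU.1 reads H3K4me2, and microglia had the shortest H3K27ac list (15091 regions against 24422 to 35713), so fewer regions were listed there for genes in general.

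The microglia differences in RNA had a counterpart in H3K27ac at some of the genes and not at others. Within 10 kb of Tnfrsf26, microglia had 0 H3K27ac regions and 2 PU.1 peaks, where the other populations had 3 to 5 regions and 6 to 8 peaks, and H3K4me2 regions numbered 3 in microglia against 3 to 5. Near Tnfrsf8, microglia had 0 H3K27ac regions against 2 to 7. At the start of Tnfrsf17, a PU.1 peak was listed in all 5 populations, and H3K27ac in BMDM, microglia and TGEM, so that neither mark there singled out microglia. Tnfsf13 carried H3K27ac at its start in all 5 populations, including microglia where its RNA was lowest.

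Promoters are shown for 4 members whose RNA separated populations and whose start lay under a PU.1 peak in at least 1 of them. They are RefSeq sequences of GRCm38.p6, from 250 bases before to 50 bases after a listed start, 5′ to 3′ on the strand of the gene. Capitals mark GAGGAA, the core of the PU.1 motif, and TGAGTCA, an AP-1 motif, on either strand. The Tnfrsf17 window (chr16:11313559-11313858, plus strand) lay under a PU.1 peak in all 5 populations, as did that of Tnfsf14 (chr17:57194132-57194431, minus strand). The Tnfrsf8 window (chr4:145315115-145315414, minus strand) lay under one in SPM, where Tnfrsf8 was highest, and the Tnfsf15 window (chr4:63745010-63745309, minus strand) in BMDM, SPM and TGEM.
Tnfrsf17: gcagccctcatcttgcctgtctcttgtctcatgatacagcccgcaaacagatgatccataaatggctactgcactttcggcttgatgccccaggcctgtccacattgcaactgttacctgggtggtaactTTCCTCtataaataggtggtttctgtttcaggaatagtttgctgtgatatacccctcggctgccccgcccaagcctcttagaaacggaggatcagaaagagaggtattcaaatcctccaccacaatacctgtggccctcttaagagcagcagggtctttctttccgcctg
Tnfrsf8: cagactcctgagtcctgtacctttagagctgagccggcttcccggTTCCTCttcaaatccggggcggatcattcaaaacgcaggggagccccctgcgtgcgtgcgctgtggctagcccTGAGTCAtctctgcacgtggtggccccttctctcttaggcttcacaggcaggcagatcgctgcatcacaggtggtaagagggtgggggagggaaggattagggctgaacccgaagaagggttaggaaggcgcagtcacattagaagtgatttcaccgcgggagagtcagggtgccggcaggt
Tnfsf14: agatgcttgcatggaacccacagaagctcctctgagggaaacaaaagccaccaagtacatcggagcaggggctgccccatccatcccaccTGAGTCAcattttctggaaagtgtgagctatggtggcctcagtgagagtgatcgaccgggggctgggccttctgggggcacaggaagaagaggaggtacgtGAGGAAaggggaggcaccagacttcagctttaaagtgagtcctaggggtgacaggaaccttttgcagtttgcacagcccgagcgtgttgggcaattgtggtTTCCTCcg
Tnfsf15: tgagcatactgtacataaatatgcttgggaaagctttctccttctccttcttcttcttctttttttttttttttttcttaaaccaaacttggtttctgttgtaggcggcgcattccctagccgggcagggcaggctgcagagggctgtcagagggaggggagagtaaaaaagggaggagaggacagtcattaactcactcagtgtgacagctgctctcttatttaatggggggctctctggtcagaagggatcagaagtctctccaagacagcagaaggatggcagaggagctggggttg
The Tnfrsf17 window holds GAGGAA once, on the opposite strand, and the Tnfsf15 window holds neither motif. Over the 28 windows found for 24 members, GAGGAA was in 9, against 28.3% of all 32851 windows of the same length, and TGAGTCA in 6 windows of 5 members, against 5.20%. The longer form AGGAAGT, which can overlap GAGGAA, was in 2 (9.35% of all), and an NF-kB consensus in 3 (8.46% of all). A match describes the letters in these windows and no binding.

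TGEM also had 14 of 32 members called, 8 higher and 6 lower, where 27.5% of all genes were called (12.7% higher and 14.8% lower). No overlap with the other populations was seen for 10 members, against 21.5% of all genes. The median log2 fold of the members was 0.36, against -0.11 over all genes. Tnfsf12 (TWEAK) and its receptor gene Tnfrsf12a (Fn14) both rose there. Tnfsf12 (chr11:69686240-69696098) stood at 3798 and 4248 in TGEM, 853 and 680 in BMDM, 583 and 261 in LPM, 495 and 254 in SPM and 285 and 53.1 in microglia. Both TGEM libraries lay above all others (log2 3.57 ± 0.41, adjusted p = 0.0003). Tnfrsf12a (chr17:23675445-23677449) stood at 307 and 191 in TGEM, and its highest value elsewhere was 47.3 in microglia (log2 3.03 ± 0.39, adjusted p = 0.000497). It overlaps Hcfc1r1 on the other strand, and since no strand setting was stated, reads of these genes cannot be told apart.

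Other ligands called higher in TGEM were Tnfsf13 (log2 2.05 ± 0.36, adjusted p = 0.00269), Tnfsf15 (TL1A, at 27.8 and 12.4, log2 2.67 ± 0.67, adjusted p = 0.0148) and Tnfsf11, which had only 6 reads in TGEM against 3 in all others. In single pairs, Tnfsf13 was called only for microglia against TGEM (limma log2 -5.07, adjusted p = 4.15e-05). For BMDM, LPM and SPM against TGEM its log2 fold was -1.46, -0.79 and -0.87 (adjusted p = 0.0946, 0.233 and 0.193). The readthrough transcript rose with Tnfsf12 and Tnfsf13 (log2 2.87 ± 0.40, adjusted p = 0.000741). Lower ligands were Tnfsf13b, at 23.7 and 12.4 (log2 -2.35 ± 0.34, adjusted p = 0.000932), and Tnfsf10 (TRAIL), at 4.81 and 7.45 against 17.3 to 86.1 elsewhere (log2 -2.78 ± 0.51, adjusted p = 0.00314). Tnfsf8 (CD30 ligand), at 1 and 3 reads against values of 9.12 to 100.5, and Tnfsf14, with 3 reads in all, were lower with adjusted p = 0.0162 and 0.0120.

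Receptors that rose in TGEM beside Tnfrsf12a were Tnfrsf26 (565 and 479; log2 2.99 ± 0.39, adjusted p = 0.000531) and Tnfrsf1b (6356 and 8613; log2 1.44 ± 0.33, adjusted p = 0.00918). The second BMDM library exceeded both TGEM libraries for Tnfrsf26, and the first BMDM library exceeded the first TGEM library for Tnfrsf1b. Tnfrsf14 (HVEM, the receptor of LIGHT) was called lower, at 30.0 and 146 against 165 to 389 (log2 -1.97 ± 0.57, adjusted p = 0.0280). So was Tnfrsf11a, at 458 and 442 against 477 to 2192 (log2 -1.07 ± 0.24, adjusted p = 0.0083). In single pairs, Tnfrsf11a was not called for LPM or SPM against TGEM (limma log2 0.14 and 0.31, adjusted p = 0.779 and 0.489). Of the 14 calls, those of Tnfsf12, Tnfrsf12a, Tnfrsf26, Tnfsf13b and the readthrough transcript held in every refit without 1 library and under every other setting tried, and that of Tnfrsf14 was lost in 9 of 10 refits (adjusted p up to 0.456). Without the first TGEM library the calls of Tnfsf10 (adjusted p = 0.0563) and Tnfrsf11a (log2 -0.98) were lost. Without the second, those of Tnfsf13, Tnfrsf1b, Tnfsf11 and Tnfsf14 were lost (adjusted p = 0.0666, 0.0949, 0.115 and 0.152), while Tnfsf15 lost its call in 2 refits and Tnfsf8 in 4. Among adaptors, 3 rose and 5 fell in TGEM, with the kinase genes Map3k5 (log2 -3.40 ± 0.26, adjusted p = 4.49e-05) and Map3k14 (log2 -2.47 ± 0.31, adjusted p = 0.000487) among those that fell. Of the 14 family genes named otherwise that were tested, 3 rose, including the lymphotoxin receptor gene Ltbr (log2 1.37 ± 0.35, adjusted p = 0.0151), and 1 fell, Cd27 (log2 -4.75 ± 0.67, adjusted p = 0.000858).

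Fibroblast and mesothelial markers moved with TGEM. Of 10 such genes, 9 were called higher there, with summed values of 2219 and 3561 against at most 99.0 in the other 8 untreated libraries, and none of the 10 was at 0 in either TGEM library. Their part in the TGEM results was not tested.

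BMDM had 4 members higher and 3 lower, where 14.8% of all genes were called (8.71% higher and 6.06% lower). Values of BMDM lay apart from all others for 2 members, against 9.82% of all genes. Tnfrsf11a was highest there, at 2192 and 1758 in BMDM, 1816 and 1210 in microglia and 442 to 586 in the other 6 libraries. BMDM and microglia overlap, and the other 3 populations lie below both (BMDM log2 1.58 ± 0.24, adjusted p = 0.00242). Tnfsf15 stood at 22.8 and 53.1 in BMDM, 27.8 and 12.4 in TGEM and 0 to 2.15 in LPM, SPM and microglia (log2 3.75 ± 0.67, adjusted p = 0.00565), and H3K27ac lay at its start in BMDM and TGEM and in none of the other 3. Tnfrsf26 (log2 2.41 ± 0.39, adjusted p = 0.00346) and Tnfrsf10b (the mouse TRAIL receptor, at 16.9 and 27.5; log2 2.28 ± 0.62, adjusted p = 0.0362) were also higher. By single pairs of populations, Tnfrsf26 in BMDM was called only against microglia (limma log2 6.91, adjusted p = 1.57e-05). It was higher than in LPM and SPM without a call (limma adjusted p = 0.0608 and 0.0512). Against TGEM its log2 fold was -0.463 (limma adjusted p = 0.643). Tnfsf13b (log2 -1.64 ± 0.34, adjusted p = 0.0115), Tnfrsf21 (545 and 610.3 against 955 to 2261; log2 -1.23 ± 0.28, adjusted p = 0.0172) and Tnfrsf13c, with 2 reads in BMDM (adjusted p = 0.0205), were lower. Without the second BMDM library none of the 7 calls remained (adjusted p = 0.0564 for Tnfrsf11a, 0.109 for Tnfrsf26 and 0.166 for Tnfsf15, which were kept in the other 9 refits). The call of Tnfsf13b was lost in 3 of 10 refits, those of Tnfrsf21 and Tnfrsf13c in 5 each and that of Tnfrsf10b in 9. Neutrophil markers moved with BMDM: 6 of 7 were called higher, none of the 7 was at 0, and they summed to 993 and 2893 in BMDM against 14.8 to 462 in the other populations. Their part in the BMDM results was not tested. Tnf was higher in BMDM as well (log2 2.15 ± 0.58, adjusted p = 0.0351), and Ltb, Relt and Ngfr were lower, out of 14 family genes named otherwise.

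Set directly against each other, the 2 cultured or elicited populations differed in 5 members, where 5.94% of all genes were called (3.50% higher and 2.44% lower). Their libraries did not overlap for 15 members, against 51.1% of all genes. Tnfrsf11a was higher in BMDM than in TGEM (log2 2.12 ± 0.30, adjusted p = 0.00565), and Tnfrsf12a, Tnfsf12, the readthrough transcript and Tnfrsf21 were lower (log2 -2.55, -2.40, -2.08 and -1.43, adjusted p = 0.0190, 0.0299, 0.0428 and 0.0452). The 4 lower calls were lost in 8 to 10 of 10 refits without 1 library, and that of Tnfrsf11a in 2. Of the marker lists above, 9 of 10 mesothelial and fibroblast genes were lower and 3 of 7 neutrophil genes higher in BMDM than in TGEM.

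In SPM, 4 members were higher and 1 lower, where 9.53% of all genes were called (6.85% higher and 2.68% lower). The groups did not overlap for 4 members, against 4.39% of all genes. Tnfrsf13c stood at 135 and 52.6 in SPM and at 0 to 9.93 elsewhere (log2 4.83 ± 0.61, adjusted p = 0.0014), and Tnfrsf19 (TROY) at 118 and 30.9 against 0 to 7.67 (log2 4.34 ± 0.79, adjusted p = 0.00805). Both SPM libraries lay above all others for both genes. Tnfrsf8, at 249 and 203 against 3.12 to 110.4, and Tnfsf14, at 13.9 and 40.7 against 0 to 31.7, were called with log2 2.43 ± 0.53 (adjusted p = 0.0192) and 2.52 ± 0.62 (adjusted p = 0.0328). Tnfrsf17 was called lower on 1 read (adjusted p = 0.0362), and its mean elsewhere rests mainly on microglia. H3K27ac near Tnfrsf19 was listed in SPM, with 3 regions within 10 kb, and in none of the other 4 populations. Of 14 family genes named otherwise, 6 were higher and 1 lower in SPM, among them Ltb, a lymphotoxin subunit (log2 3.47 ± 0.64, adjusted p = 0.00896), Cd40 (log2 2.90 ± 0.38, adjusted p = 0.00168) and, lower, Tnf (log2 -2.40 ± 0.58, adjusted p = 0.0308).

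B cell markers moved with the SPM group. All 8 were called higher in SPM, none was at 0 there, and their summed values were 9064 and 6116 in SPM, 646 and 1356 in LPM and 63.8 to 375 in the other populations. Mast cell and eosinophil markers were called higher in SPM for 4 of 7 genes. The part of these cells in the SPM results was not tested. With 1 library left out at a time, the calls of Tnfsf14, Tnfrsf17 and Tnfrsf8 were lost in 8, 7 and 6 of 10 refits. Without the first SPM library, none of the 5 calls remained (Tnfrsf13c adjusted p = 0.0817, Tnfrsf19 adjusted p = 0.265).

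LPM had 2 members higher and 3 lower, where 9.55% of all genes were called (5.46% higher and 4.09% lower). The groups did not overlap for 1 member, against 4.19% of all genes. Tnfsf13b (208 and 148; log2 1.74 ± 0.34, adjusted p = 0.0110) and Tnfsf14 (14.0 and 31.7; log2 2.31 ± 0.62, adjusted p = 0.0460) were higher. Tnfrsf12a was lower at 19.4 and 16.9, below every other library (log2 -1.56 ± 0.39, adjusted p = 0.0332). Tnfsf15, with 0 reads in LPM and thus at least 8.43-fold lower than elsewhere, and Tnfrsf17, with 1 read, were lower too (adjusted p = 0.0329 and 0.0350). The mean of Tnfsf15 elsewhere rests on BMDM and TGEM, since SPM and microglia held 0 to 2.15, and that of Tnfrsf17 rests mainly on microglia. With 1 library left out at a time, the call of Tnfsf14 was lost in 9 of 10 refits. Those of Tnfsf15 and Tnfrsf17 were lost in 7 each, that of Tnfrsf12a in 6 and that of Tnfsf13b in 2. No call remained without the first LPM library (adjusted p from 0.224 to 0.381). Mast cell and eosinophil markers moved with LPM, with 4 of 7 called higher and summed values of 320 and 406, against 281 and 291 in SPM and 7.80 to 238 in the other 3 populations. B cell markers did so for 3 of 8 genes, and the part of either list was not tested. Fas was higher in LPM (log2 2.52 ± 0.47, adjusted p = 0.00922) and Tnf lower (log2 -3.71 ± 0.58, adjusted p = 0.00361). Between LPM and SPM, limma called 0 of 32 members (5 at an unadjusted p under 0.05), edgeR also called 0, and 0.0259% of all genes were called by limma. Libraries of LPM and SPM did not overlap for 9 members, against 23.7% of all genes. Tnfrsf13c was the member with the smallest p (log2 -3.45, adjusted p = 0.324).

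Microglia and LPM were then compared directly, as the resident macrophages of brain and peritoneum. In C57BL6/J, 2 members were higher in microglia and 7 lower, where 18.3% of all genes were called (7.54% higher and 10.8% lower). The libraries did not overlap for 16 members, against 47.8% of all genes. Tnfrsf17 had 275 reads in microglia and 1 in LPM, a ratio of 466 with an exact 95% interval of 83.0 to 18490 that covers counting error only (adjusted p = 0.00024). Tnfrsf11a was higher by log2 1.58 ± 0.30 (adjusted p = 0.00482). Tnfrsf26 (log2 -5.35 ± 0.49, adjusted p = 6.62e-05), Tnfsf13 (log2 -4.28 ± 0.46, adjusted p = 0.000164), Tnfrsf8, Tnfrsf22, the readthrough transcript, Tnfsf14 and Tnfrsf13c were lower. The calls of Tnfrsf17, Tnfrsf26 and Tnfsf13 held under every setting and refit tried. Those of Tnfrsf11a (without the first LPM library, adjusted p = 0.0955) and Tnfsf14 (without the second, adjusted p = 0.0616) were lost in 1 of 10 refits, those of Tnfrsf8 and the readthrough transcript in 2, and those of Tnfrsf13c and Tnfrsf22 in 4.

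The contrast was repeated across 3 strains, with C57BL6/J, NOD/ShiLtJ and SPRET/EiJ as blocks and 1 library per strain and population, of which the C57BL6/J pair is the second pair of the comparison above. Here 3 members were higher in microglia and 4 lower, where 16.0% of all 18496 genes tested were called (7.09% higher and 8.95% lower). Microglia and LPM did not overlap for 10 members, against 33.1% of all genes. Tnfsf13 stood at 25.0, 48.5 and 24.4 in microglia of C57BL6/J, NOD/ShiLtJ and SPRET/EiJ and at 607, 738 and 1262 in their LPM. The groups did not overlap (log2 -4.70 ± 0.37, adjusted p = 0.000552). Tnfsf12 and the readthrough transcript were lower in the same way (log2 -2.15 ± 0.30, adjusted p = 0.00506, and -3.58 ± 0.23, adjusted p = 0.000311).

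Tnfrsf17 stood at 84.3, 82.8 and 19.8 in microglia and at 0.512, 2.83 and 1.90 in LPM (log2 4.37 ± 0.71, adjusted p = 0.00879), so that all 3 strains had it higher in microglia. Tnfrsf11a followed the same order, at 1210, 1645 and 1107 against 512, 449 and 228 (log2 1.80 ± 0.26, adjusted p = 0.0053), and Tnfrsf21 was higher too (log2 1.28 ± 0.32, adjusted p = 0.0378). Tnfrsf13c was lower (log2 -2.72, adjusted p = 0.0467), a call lost in all 6 refits that left out 1 library. It was highest in SPRET/EiJ LPM (15.9), where B cell markers summed to 3098, and the part of B cells in this was not tested. The call of Tnfrsf21 was also lost in all 6 (adjusted p up to 0.275), those of Tnfrsf17, Tnfrsf11a and Tnfsf12 in 4 of 6, and that of Tnfsf13 in 1, without the C57BL6/J LPM library (adjusted p = 0.0680). Immediate early genes summed to 5279 and 3640 in microglia of NOD/ShiLtJ and SPRET/EiJ and to 4852 and 7475 in their LPM, and across strains 1 of 18 was called higher and 1 lower. Fas and Cd40 were lower in microglia here too (log2 -4.78 ± 0.72, adjusted p = 0.00657, and -5.63 ± 0.70, adjusted p = 0.00309), with Relt the other one called of 11 family genes named otherwise.

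Tnfrsf26 was not called across strains. It stood at 107 in C57BL6/J LPM, 122 in NOD/ShiLtJ LPM and 1.27 in SPRET/EiJ LPM, against 1 read, 4.04 and 3.96 in microglia. SPRET/EiJ LPM therefore lay at the level of microglia. Tnfrsf8 was at 74.0 in NOD/ShiLtJ LPM and 97.0 in NOD/ShiLtJ microglia but at 1.27 and 1.32 in the SPRET/EiJ cells, and Tnfsf8 at 13.6 and 66.7 against 1 read in each SPRET/EiJ library. For the death receptor gene Tnfrsf10b the order was reversed, with 3.96 and 4.71 in NOD/ShiLtJ and 20.9 and 25.1 in SPRET/EiJ. In the fit of SPRET/EiJ against NOD/ShiLtJ, limma called 0 of 32 members (6 at an unadjusted p under 0.05), edgeR also called 0, and 0.303% of all genes were called (0.119% higher and 0.184% lower in SPRET/EiJ). The strains did not overlap for 11 members, against 30.5% of all genes. The adjusted p was 0.134 for Tnfsf8 (log2 -4.25 ± 0.84), 0.181 for Tnfrsf8 (log2 -5.22 ± 1.22) and 0.303 for Tnfrsf10b (log2 2.17 ± 0.66). Reads of SPRET/EiJ were counted on mm10, a reference of another strain, and the part of that in low SPRET/EiJ values was not tested.

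**Figure D3:**
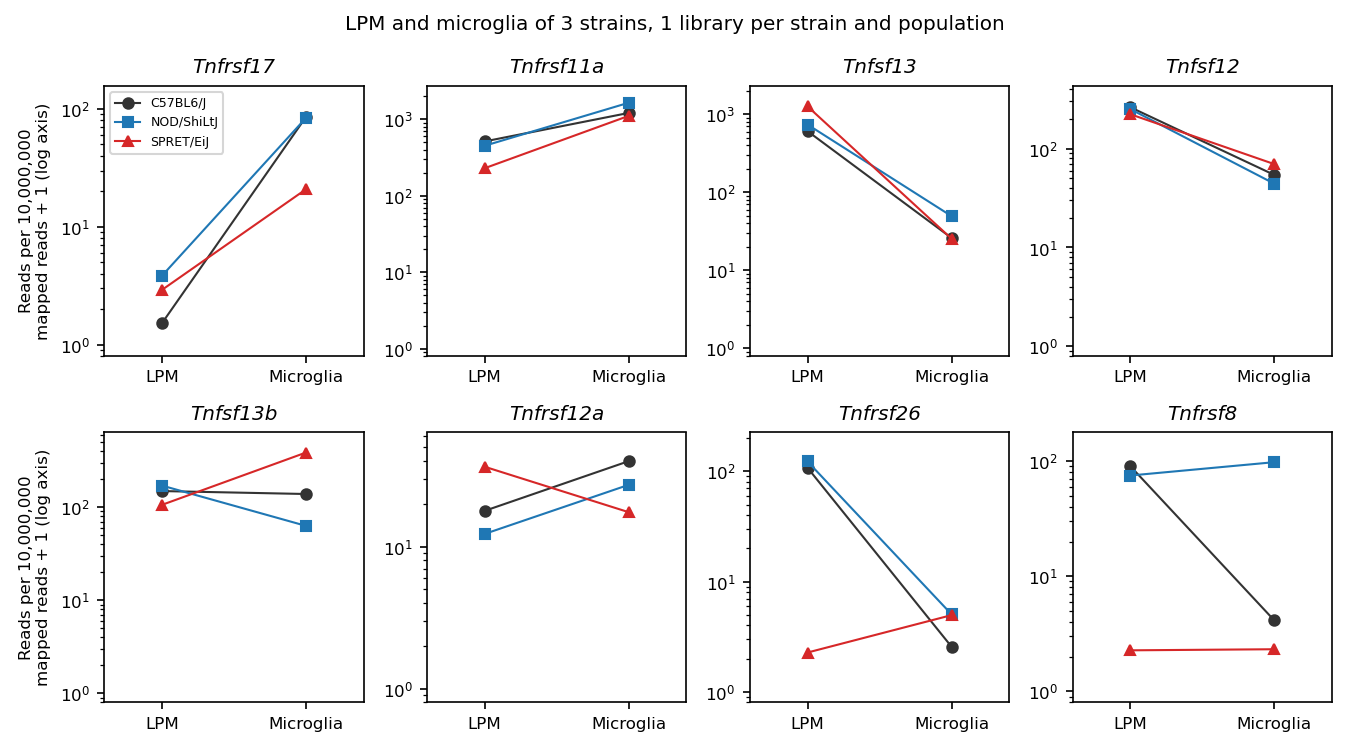
Reads per 10000000 mapped reads + 1 (log axis) of 8 genes in LPM and microglia, with lines joining the libraries of each of 3 strains. Tnfsf13 and Tnfsf12 fall and Tnfrsf17 and Tnfrsf11a rise from LPM to microglia in all 3 strains, whereas the SPRET/EiJ lines of Tnfrsf26 and Tnfrsf8 stay near the bottom.

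In cultured LPM, the effects of TGFB1, ATRA and the growth factor were compared. In this fit the spread of each gene was taken from the trend over all genes and not from its own libraries. The p-values therefore do not reflect how much a given gene varied itself. Of the 32 members, 28 could be tested, and Tnfrsf19, Tnfrsf25, Tnfrsf9 and Tnfsf11 were too low. With TGFB1, 1 member rose and 1 fell, where 6.70% of all 15417 genes were called (3.17% higher and 3.53% lower). Libraries did not overlap for 15 members, against 43.6% of all genes. Tnfsf8 stood at 42.5 (IL-34) and 52.0 (M-CSF) with TGFB1 and at 0.849 and 4.70 with its vehicle. The groups lay apart (log2 3.89 ± 0.62, adjusted p = 2.64e-08), and the other 4 cultures, with ATRA or DMSO, ranged from 0 to 4.23. The call was lost in 1 of 8 refits, the one without the library of M-CSF and DMSO (adjusted p = 0.104), and without the filter on low values.

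Tnfsf9 fell with TGFB1, at 2.90 and 4.22 against 14.4 and 32.1 with vehicle (log2 -2.33 ± 0.57, adjusted p = 0.00124), and lost its call in 4 of 8 refits. Tnfrsf14 stood at 25.1 and 33.0 against 72.1 and 62.7 (log2 -1.19 ± 0.41, adjusted p = 0.0539) and Tnfrsf21 at 716 and 555 against 365 and 355 (log2 0.81 ± 0.32, adjusted p = 0.126). Neither passed the threshold. Beside them, 0 of 22 adaptors rose and 3 fell, namely Traf1 (log2 -2.76 ± 0.65, adjusted p = 0.000643), Mlkl (log2 -2.38 ± 0.47, adjusted p = 1.79e-05) and Birc3 (log2 -1.41 ± 0.33, adjusted p = 0.000663). Of 9 family genes named otherwise that could be tested, Fas (log2 -1.82 ± 0.46, adjusted p = 0.00209) and Relt fell and none rose, and of 17 NF-kB subunits and inhibitors 5 fell and none rose.

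ATRA gave 1 call among 28 members, where 2.30% of all genes were called (1.95% higher and 0.350% lower). Libraries did not overlap for 11 members, against 26.6% of all genes. Tnfsf14 stood at 14.4 and 6.34 with ATRA and at 0 and 4.06 with DMSO (log2 2.24 ± 0.66, adjusted p = 0.0332), values that rest on few reads. The call was lost in 6 of 8 refits, under edgeR and with TMM scaling. Tnfrsf26 stood at 197 and 123 with ATRA and at 67.9 and 88.6 with DMSO (log2 0.99 ± 0.36, adjusted p = 0.167). Between IL-34 and M-CSF, limma called 0 of 28 members (6 at an unadjusted p under 0.05), edgeR called 0, and 0.999% of all genes were called (0.182% higher with IL-34). The groups did not overlap for 1 member, against 2.13% of all genes. Tnfrsf11a had an adjusted p of 0.0496 but a fold under 2: it ranged from 211 to 363 with IL-34 and from 281 to 590.2 with M-CSF (log2 -0.78 ± 0.23).

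**Figure D4:**
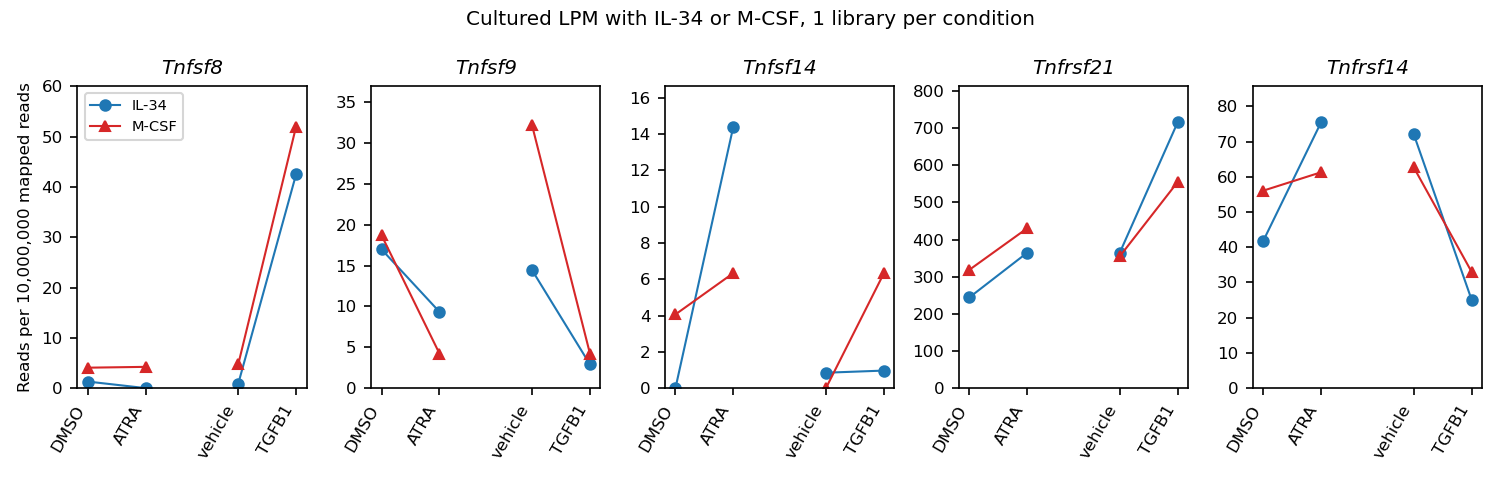
Reads per 10000000 mapped reads of 5 genes in 8 cultures of LPM, with lines joining each additive to its vehicle within IL-34 (circles) or M-CSF (triangles). Tnfsf8 rises from 0.849 and 4.70 to 42.5 and 52.0 with TGFB1, and Tnfsf9 falls from 14.4 and 32.1 to 2.90 and 4.22.

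Cultured microglia were tested against freshly sorted microglia in a fit with 2 residual degrees of freedom. The fresh group is 1 library, so the spread comes from the 3 cultures alone, which had different cytokines, and the p-values assume that the fresh library varies as they do. Of 30 members tested, limma called 1, Tnfrsf19, on 4 reads in the fresh library against 0 in the cultures, where 9.01% of all genes were called (3.34% higher and 5.67% lower). The fresh library lay outside the cultures for 19 members, against 66.9% of all genes. Tnfrsf17 stood at 64.9 in fresh microglia and at 5.61, 2.37 and 3.41 in the cultures with IL-34, labelled M-CSF and titled GMcsf (log2 -3.84 ± 0.68, adjusted p = 0.0842). Tnfrsf26 had 1 read in the fresh library and stood at 124, 79.8 and 1124 in the cultures (log2 6.73 ± 1.97, adjusted p = 0.168), and Tnfsf12 at 42.5 and at 358, 332 and 162 (log2 2.63 ± 0.62, adjusted p = 0.127). All 3 cultures lay on 1 side of the fresh library for these genes, but none passed the threshold.

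The library labelled M-CSF exceeded the other 2 microglia cultures for several members. With 1 library each there is no test, so members were named by a rule of size set after the values were seen, a difference of at least 4-fold on the log2(value + 1) scale with at least 10 in either library. Against the IL-34 library, 8 of 18 members compared were higher and 1 lower, where 14.0% of all genes passed in either direction (9.48% higher). Of these, Tnfsf15, Tnfsf4, Tnfsf11 and Tnfsf13b reached 10 only in the library labelled M-CSF. The counts therefore describe the values and support no conclusion. The libraries labelled M-CSF and titled GMcsf were not compared by this rule. Tnfsf15 stood at 1696 in the library labelled M-CSF, 2.24 with IL-34 and 1 read in the library titled GMcsf. Tnfsf10 stood at 330, 13.5 and 35.8, and Tnfsf9 at 189, 42.6 and 15.3. Tnfsf4 (OX40 ligand) and Tnfsf11 stood at 88.5 and 26.9 and had 0 reads in both other cultures. The remaining higher members were Tnfsf13b, Tnfrsf14 (272 against 30.3) and Tnfrsf1b (13128 against 2193), and Tnfrsf25 had 0 reads against 25.8 with IL-34. Family genes named otherwise moved in the same library, with Tnf at 20145 against 173 and Cd40 at 9077 against 3.36, as did the summed NF-kB subunits and inhibitors (22020 against 3549 and 3767). Whether the cytokine or another feature of that library goes with these values cannot be told apart.

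In the library titled GMcsf, 4 members were higher and 1 lower than with IL-34 by the same rule, where 10.7% of all genes passed. These were Tnfrsf26 (1124 against 124), Tnfrsf23 (106 against 13.5), Tnfrsf22 (18.8 against 3.36) and Tnfsf14 (29.0 against 1 read), with Tnfrsf25 at 0 reads. The 3 higher receptors are the chr7 neighbours. Tnfrsf22 and Tnfsf14 reached 10 only in the library titled GMcsf, so this count too is a description.

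**Figure D5:**
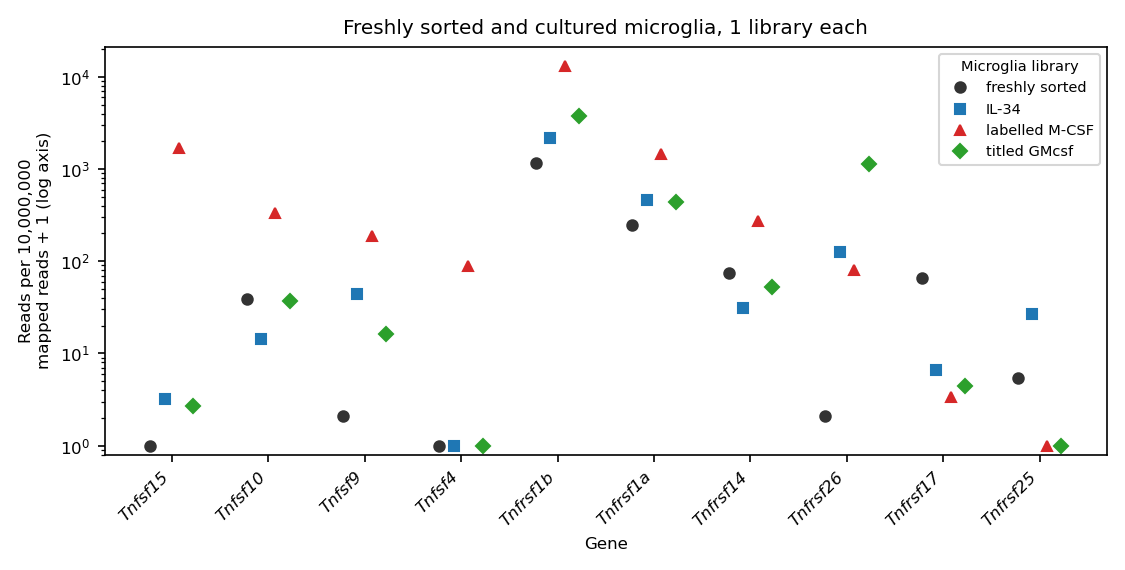
Reads per 10000000 mapped reads + 1 (log axis) of 10 genes in freshly sorted microglia and in 3 cultures, 1 library each. The library labelled M-CSF is the highest for Tnfsf15, Tnfsf10, Tnfsf9, Tnfsf4, Tnfrsf1b, Tnfrsf1a and Tnfrsf14, the library titled GMcsf for Tnfrsf26 and the fresh library for Tnfrsf17.

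Cultured microglia (IL-34 and labelled M-CSF) were compared with the 4 vehicle cultures of LPM, and 4 of 29 members were higher and 1 lower, where 14.3% of all genes were called (9.30% higher and 5.01% lower). The groups did not overlap for 10 members, against 34.4% of all genes. Tnfrsf12a stood at 158 and 97.2 in microglia and at 22.1 to 33.9 in LPM (log2 2.18 ± 0.35, adjusted p = 0.00623). Tnfsf12 stood at 358 and 332 against 102 to 152 (log2 1.46 ± 0.24, adjusted p = 0.00718), the opposite order to the freshly sorted cells in the strain fit. Tnfsf13 kept the order of the fresh cells at 198 and 181 against 353 to 467 (log2 -1.07 ± 0.21, adjusted p = 0.0137). Tnfsf9 (log2 2.14 ± 0.46, adjusted p = 0.0188) and Tnfsf15 (log2 5.87 ± 1.59, adjusted p = 0.0424) were also higher. Without the library labelled M-CSF, the calls of Tnfsf15, Tnfsf9 and Tnfsf12 were lost (log2 1.70, 1.39 and 1.51), as was that of Tnfsf13. Without the IL-34 microglia library, those of Tnfrsf12a (log2 1.875) and again Tnfsf12 were lost. Each of these refits left 1 microglia library. Tnfsf15 lost its call in 4 of 6 refits and Tnfsf13 in 3 (adjusted p up to 0.0831). Of 6 mesothelial and fibroblast markers tested, 4 were higher in these microglia, and their part was not tested. Tnf was higher in these microglia as well (log2 4.79 ± 1.01, adjusted p = 0.0177).

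Tnfrsf11b, Tnfrsf13b, Tnfrsf18, Tnfrsf1a, Tnfrsf4, Tnfrsf9, Tnfsf18 and Tnfsf4 passed the thresholds in none of the comparisons above. When single pairs of populations were compared in the same fit, Tnfrsf1a was lower in microglia than in TGEM (log2 -1.27, adjusted p = 0.0204), and it was higher in BMDM than in microglia (log2 1.16, adjusted p = 0.0360). Tnfsf4 was higher in BMDM, with 6 and 27 reads, than in microglia, with 0 reads in both libraries (adjusted p = 0.0202).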

How the data were processed

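RNA-seq gene signal was taken from 4 deposited tables. Per the file headers, the authors had normalized these signal values so that each library amounts to 10000000 mapped reads. Reads had been aligned and counted with tools that include STAR, Bowtie and HOMER on mm10, per the submitters' processing notes, and neither their versions nor a strand setting were found. Values are whole multiples of 1 read (0.3703 to 3.465), and 100% of low values came out whole within 0.1, so reads were recovered by division for edgeR. Introns were counted where the listed length equals the gene span (99.6% of rows in 3 tables, 8.26% in the table of cultures). The deposited peak lists carry a score per entry that served only to rank entries within a list.

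The longest row was kept per symbol. limma 3.58.1 with a mean-variance trend (R 4.3.3) was fitted to log2(value + 1) over all genes reaching 1 in a library of the fit. Folds are on that scale, which understates changes of low genes, and errors are standard errors. The population fit used the deposited table as a block, because library kind differs between tables. Same-numbered libraries did not pair (correlations of deviations -0.24 to 0.90 over 10 pairs of populations). Residual degrees of freedom were 4 for populations, 2 for strains, 3 for cultured LPM, 2 for microglia cultures and 3 for the comparison of both cultures. In the fit of cultured LPM the variance was taken wholly from the trend, and the spread of the single gene was not used. The strain tables list 0 on all 1047 X and 48 Y genes, which were left out there. Alternatives were a pseudocount of 5, no filter, TMM scaling, edgeR 4.0.16 quasi-likelihood, the row with the highest mean, no block, and each library left out. The fits were tested on simulated data.

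The members and lists were chosen with earlier results of these data known. Every member is accounted for, and each comparison names each member called, up to 15 by size of the fold. Other members are given where their mean is at least 50, and a few lower ones were chosen after their values were seen. Of the pathway lists, up to 3 called genes per direction are named. A gene at 0 reads is compared with 3 reads per library.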

Additional observations from a re-analysis of the deposited data

Results flagged for a closer look

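A gene was flagged where microglia and LPM differed at least 2-fold in opposite directions in different strains, with a value of at least 10 in each direction. This held for a pair of genes, with 1 library per strain and population, so these differences were not tested. Tnfrsf26 (log2 -5.40 to 1.13), Tnfrsf11b (-1.18 to 1.59) and Tnfsf4 (-1.09 to 1.21) also had opposite signs of that size but did not meet the rule on values. Tnfrsf12a, the TWEAK receptor, was higher in microglia by log2 1.16 in C57BL6/J (39.0 against 16.9) and by 1.15 in NOD/ShiLtJ (26.3 against 11.3), and lower by log2 -1.06 in SPRET/EiJ (16.5 against 35.5). Tnfsf13b, which encodes BAFF, was lower in microglia of NOD/ShiLtJ by log2 -1.44 (62.0 against 170) and higher in microglia of SPRET/EiJ by log2 1.87 (385 against 105).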

How the results depend on the processing

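No called member reversed its direction: of 441 values under other settings 380 kept their call and 61 lost it, and of 689 values with 1 library left out 471 kept it and 218 lost it. Without a filter on low values the members called were 2 for LPM, 1 for SPM, 4 for BMDM, 5 for microglia against LPM, 2 for BMDM against TGEM, 0 across strains, 0 for ATRA, 0 for TGFB1 and 2 for cultured microglia against cultured LPM. The replicate block (the term for the table) was left out in 1 alternative, which gave 13 calls for microglia, 4 for LPM, 5 for SPM, 6 for BMDM, 14 for TGEM, 9 for microglia against LPM, 0 for LPM against SPM and 2 for BMDM against TGEM. The strains table alone gave 6 calls across strains. edgeR and TMM scaling each gave 0 calls for ATRA, and edgeR gave 0 for cultured against fresh microglia and 9 for cultured microglia against cultured LPM. With 1 library left out, calls ranged from 8 to 16 for microglia, 0 to 4 for LPM, 0 to 4 for SPM, 0 to 8 for BMDM, 9 to 13 for TGEM, 4 to 9 for microglia against LPM, 0 to 0 for LPM against SPM and 0 to 4 for BMDM against TGEM. They ranged from 1 to 6 across strains, 0 to 0 for SPRET/EiJ against NOD/ShiLtJ, 0 to 1 for ATRA, 0 to 2 for TGFB1, 0 to 1 for IL-34 against M-CSF, 1 to 4 for cultured against fresh microglia and 2 to 8 for cultured microglia against cultured LPM. Where a refit left a group with 1 library, that library is assumed to vary like the others. The causes were not tested.

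TMM scaling moved the share of calls that were higher, over all genes, from 71.9% to 59.8% for SPM, from 18.2% to 62.5% for IL-34 against M-CSF, from 37.0% to 23.3% for cultured against fresh microglia and from 65.0% to 52.4% for cultured microglia against cultured LPM. Genes with a mean of at least 50 were shifted by a median log2 of 0.86 between cultured and fresh microglia. Counting PU.1 peaks within 1 kb of the start, in place of 10 kb of the gene, gave 18 members for LPM, 15 for microglia and 19 for TGEM. These are 56.2%, 46.9% and 59.4% of members, against 38.1%, 29.8% and 40.6% of all symbols. BMDM had 20 members (62.5% against 36.8%) and SPM 24 (75.0% against 40.9%). Members under about 10 rest on few reads, and the shallowest library had 2890000.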
